A study of Rattus norvegicus with 2 samples.

Results

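The 8 genes described here encode core parts of the machinery that fuses synaptic vesicles with the plasma membrane, and they were taken by gene name: Vamp1, Vamp2, Snap25, Stx1a, Syt1, Syt2, Cplx1 and Cplx2. All 8 were found among the 22777 mRNA genes of the deposited tables, with 10 of the 26324 listed mRNA transcripts between them. The RNA came from hypothalamic tissue of female Sprague Dawley rats, for which neither the labels nor the methods name a treatment. The prepubertal rats were at postnatal day 25 and the pubertal rats at postnatal day 35, with vaginal opening as the mark of puberty. The study defined the pubertal rats as those in their first estrus, read from vaginal smears. The study used 3 rats for each stage, but its tables give 1 column for prepubertal and 1 for pubertal rats, and the sources used here do not say how the animals were combined. Each column was therefore taken as 1 library. With no replicates, the stage differences carry no p-value, and age, puberty, estrous phase and library cannot be told apart.

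Vesicle release rests on SNARE proteins, which sit on the vesicle and on the plasma membrane and zip into a bundle that pulls the membranes together. Synaptobrevins (the Vamp genes) are the vesicle SNAREs, and syntaxin (Stx1a) and Snap25 are the SNAREs of the target membrane. Synaptotagmins bind calcium and trigger fusion, and complexins bind the assembled SNARE bundle and both hold and promote the last step. In the hypothalamus the same parts serve fast synapses and the secretion of neuropeptides and releasing hormones.

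Expression was given as FPKM, fragments scaled to transcript length and to the mapped fragments of the library, which allows levels to be compared between genes of different length. Differences between the stages are given as a log2 ratio, the log2 of (pubertal FPKM + 1) over (prepubertal FPKM + 1), so that negative values stand for lower levels at puberty. Low FPKM values fell on whole steps, which gave the number of fragments behind each value. For a transcript of 2000 nt, 1 fragment was worth 0.0276 FPKM before puberty and 0.0353 FPKM at puberty, so the prepubertal library was 1.28 times as deep. The 8 genes rested on 548 to 20041 fragments before puberty and on 480 to 15085 at puberty. Intervals called counting intervals below are exact binomial intervals at 95% for the ratio of FPKM, from the fragment numbers. They cover counting error only and hold nothing of the spread between rats. For Vamp1, whose 2 transcripts differ in length (2633 and 482 nt), the interval pools their fragments and is too narrow.

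The 8 genes lay high in the expression range and spanned a 35.3-fold range of level before puberty and a 30.3-fold range at puberty. Snap25 had the highest level, above 99.1% of the 18052 genes with FPKM above 0 in either library, and Syt2 the lowest, above 67.7% before puberty. The order was the same in both libraries: Snap25, Vamp1, Syt1, Cplx1, Cplx2, Vamp2, Stx1a and Syt2. The summed FPKM of the 8 genes was 1516 before puberty and 1443 at puberty.

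**Figure D1:**
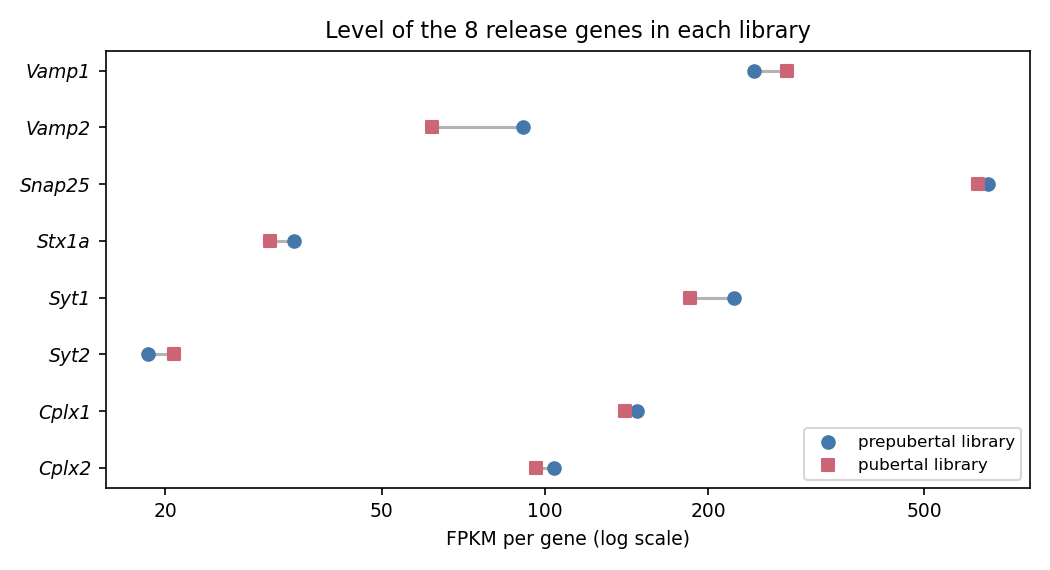
FPKM of each of the 8 release genes, on a log axis, in the prepubertal library (blue circles) and the pubertal library (red squares), with 1 library per stage and so no error bars. The order of the genes is the same in both libraries, and the widest gap is that of Vamp2, from 91.0 to 62.0 FPKM.

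At puberty 6 of the 8 genes were lower and 2 were higher, and the median log2 ratio was -0.09. Over all 22777 genes 40.4% were lower and 38.9% higher and the median was 0.00, and over the 2604 genes with FPKM of at least 50 in 1 library 37.7% were lower, 62.3% were higher and the median was 0.06. As deposited, none of the 8 genes differed by 1.5-fold in FPKM + 1, a size reached by 3.29% of all genes. The share was 4.65% of those with FPKM of at least 1 and 2.96% of those with FPKM of at least 50. None of the 8 differed by 2-fold either, which 0.681% of all genes did. At a threshold of 0.32 on the log2 scale 1 of the 8 passed, Vamp2, lower at puberty, against 8.04% of all genes that were lower by that much. The directions depended on the scale: when the libraries were set to equal Actb, the β-actin gene, which was itself lower at puberty (763 and 576 FPKM, log2 ratio -0.40), the median became 0.31 and only Vamp2 of the 8 remained lower. That scaling multiplies every pubertal value alike. The median of the 2604 genes with FPKM of at least 50 went to 0.46 with it, and the median of the 8 genes stayed below that. The median of all genes went to 0.19, and the median of the 8 genes, lower than it as deposited, then lay above it. With equal Actb Vamp1 passed 1.5-fold (log2 ratio 0.61). Vamp2 passed 1.5-fold (-0.62) after centring within classes of level.

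**Figure D2:**
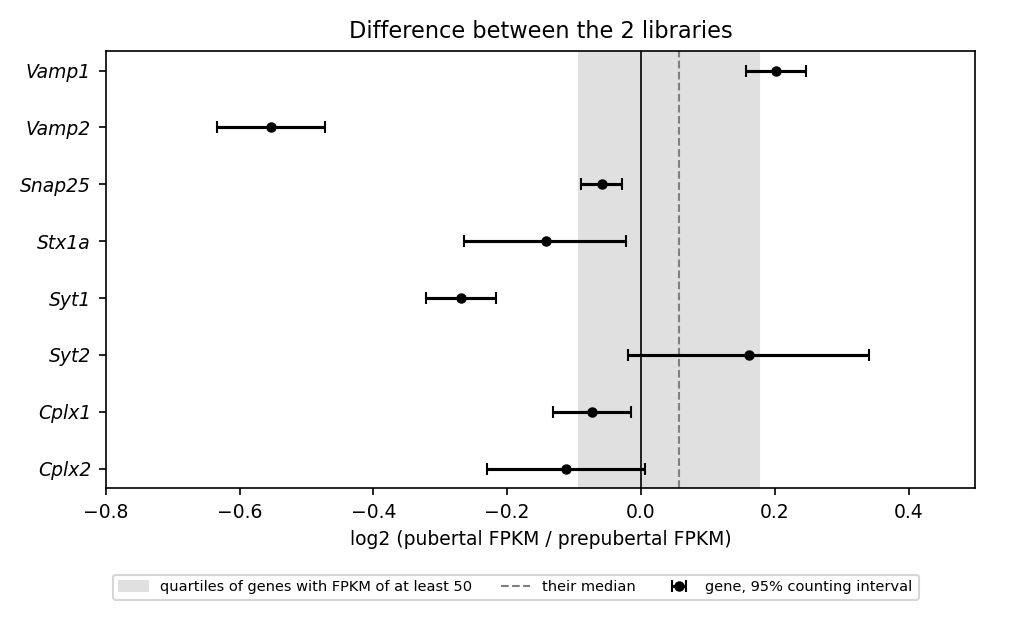
Log2 ratio of pubertal over prepubertal FPKM for each of the 8 genes (points) with the 95% counting interval (bars), which holds no spread between rats. The interval of Vamp1 is too narrow, since it pools transcripts of unlike length. The grey band and dashed line show the quartiles (-0.09 to 0.18) and median (0.06) of the 2604 genes with FPKM of at least 50 in 1 library, on the FPKM + 1 scale. Vamp2 and Syt1 lie left of the band with their whole intervals, and the interval of Syt2 and that of Cplx2 include 0.

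The vesicle SNAREs differed in opposite directions between the stages. Vamp1 (synaptobrevin 1, ENSRNOG00000019219), the form that is prominent in the brainstem and spinal cord, stood at 243 FPKM before puberty and 279 FPKM at puberty. Its log2 ratio was 0.20, with a counting interval of 0.16 to 0.25 from the pooled fragments of its 2 transcripts. This interval is too narrow, since the shorter transcript (482 nt) gave 83.3 and 86.4 FPKM on only 392 and 325 fragments. Vamp2 (synaptobrevin 2, ENSRNOG00000006989), the main vesicle SNARE of forebrain synapses, stood at 91.0 FPKM before puberty and 62.0 FPKM at puberty. It was 1.47-fold lower at puberty, a log2 ratio of -0.55 with a counting interval of -0.63 to -0.47. Among the 2604 genes with FPKM of at least 50, 1.80% had a lower log2 ratio than Vamp2 and 20.6% a higher one than Vamp1.

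Because of these opposite differences, the Vamp1 share of the summed FPKM of Vamp1 and Vamp2 was 72.7% before puberty and 81.8% at puberty. The ratio of Vamp1 to Vamp2 FPKM was 2.67 before puberty and 4.50 at puberty. The sum of the pair was nearly level, at 334 and 341 FPKM. A scaling factor cancels in such a share, so it does not depend on how the libraries are scaled to each other.

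Vamp1 has 2 listed transcripts. ENSRNOT00000025081, of 2633 nt, had 159 and 193 FPKM, and ENSRNOT00000026012, of 482 nt, had 83.3 and 86.4 FPKM. The gene's difference thus lay mostly in the longer transcript, whose part of the gene's FPKM was 65.7% and 69.0%. The shorter transcript rested on 392 and 325 fragments, and the division of fragments between transcripts of a gene is an estimate by the authors' software. Vamp2 has a single listed transcript, ENSRNOT00000057295, of 2168 nt, with 3610 and 1928 fragments.

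Since Vamp1 and Vamp2 differed in opposite directions, the 250 bases before their transcription starts are shown, from the RefSeq promoter table on the build GRCr8, on the plus strand and 5′ to 3′. The Vamp1 stretch is chr4:159698644-159698893 and the Vamp2 stretch chr10:54292539-54292788. Capitals mark matches to the motifs searched on both strands, the GC box GGGCGG, which reads CCGCCC on the other strand, the cAMP response element TGACGTCA, and the left part of the RE1 element TTCAGCACC, which reads GGTGCTGAA on the other strand.
Vamp1: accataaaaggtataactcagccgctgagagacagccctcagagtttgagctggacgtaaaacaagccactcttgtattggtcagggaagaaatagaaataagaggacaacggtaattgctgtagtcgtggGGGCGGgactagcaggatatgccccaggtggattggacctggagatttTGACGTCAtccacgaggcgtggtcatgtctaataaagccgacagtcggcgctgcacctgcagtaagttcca
Vamp2: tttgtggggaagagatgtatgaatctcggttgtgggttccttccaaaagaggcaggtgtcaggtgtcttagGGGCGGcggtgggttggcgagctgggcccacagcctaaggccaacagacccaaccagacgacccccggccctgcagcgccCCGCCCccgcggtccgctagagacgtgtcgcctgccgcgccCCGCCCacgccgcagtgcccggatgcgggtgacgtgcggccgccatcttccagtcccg
The Vamp1 stretch holds 1 GC box and 1 cAMP response element, and the Vamp2 stretch holds 3 GC boxes, with no overlap between motifs. There were 11 CG dinucleotides in the Vamp1 stretch and 24 in that of Vamp2, with a median of 5 over all promoters. Among 33469 promoters of the same length, 30.5% hold a GC box, 1.59% the cAMP response element and 0.305% the RE1 part. Of the 8 genes 7 were matched in the table, all but Snap25. A GC box was present in 6 of these 7, all but Syt2. The cAMP response element was present in 1 of the 7 (Vamp1) and the RE1 part in 0. These matches are a description of letters, not of binding.

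The study also listed a lncRNA locus, XLOC_070292, as a neighbour of Vamp2 and of other genes. It was looked at with the study's list known, so its difference is a description only. Its single transcript TCONS_00088745, of 1856 nt, had 0.361 FPKM before puberty and 1.04 FPKM at puberty, the opposite direction to Vamp2. These values corresponded to 12 and 27 fragments, with exact Poisson intervals of 6.20 to 21.0 and 17.8 to 39.3. The log2 ratio was 0.58 in FPKM + 1 and 1.52 in FPKM, with a counting interval of 0.49 to 2.64 for the latter. At 12 fragments the size of the difference is known only roughly.

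The target-membrane SNAREs differed less than the vesicle SNAREs. Snap25 (ENSRNOG00000006037), which lends a pair of helices to the SNARE bundle, had 654 FPKM before puberty and 628 FPKM at puberty. Its log2 ratio was -0.06, with a counting interval of -0.09 to -0.03. Snap25 is known for a pair of splice forms that exchange a single exon of equal length. The table lists 2 transcripts of the same length, 1732 nt, and the tables do not say which splice form each one is. ENSRNOT00000008734 had 485 and 489 FPKM, and ENSRNOT00000007998 had 169 and 139 FPKM, a log2 ratio of -0.28. By these values the small difference of the gene lay in the less abundant transcript, which held 25.9% of the gene's FPKM before puberty and 22.2% at puberty. Here too the division of fragments between the transcripts is an estimate by the authors' software. When the more abundant transcript was taken alone, the sign of Snap25 turned, to a log2 ratio of 0.01.

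Stx1a (syntaxin 1A, ENSRNOG00000029165), the membrane-anchored SNARE that also binds calcium channels, had 34.4 FPKM before puberty and 31.2 FPKM at puberty. Its log2 ratio was -0.14, and the counting interval was -0.26 to -0.02, on 1341 and 951 fragments.

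Of the calcium sensors, Syt1 was lower at puberty as deposited, but higher when scaled to equal Actb, and Syt2 as deposited did not differ beyond counting error (0.54 when scaled to equal Actb). Syt1 (synaptotagmin 1, ENSRNOG00000006426), the main sensor for synchronous release in the forebrain, had 223 FPKM before puberty and 185 FPKM at puberty. Its log2 ratio was -0.27, with a counting interval of -0.32 to -0.22. Of the 2604 genes with FPKM of at least 50, 8.18% had a lower log2 ratio. Syt2 (synaptotagmin 2, ENSRNOG00000004756), the fast sensor typical of the hindbrain and of fast-spiking neurons, had 18.6 FPKM before puberty and 20.7 FPKM at puberty. Its log2 ratio was 0.15 and its counting interval, -0.02 to 0.34, included 0. With 548 and 480 fragments Syt2 was the least deeply covered of the 8 genes, and its difference was not detectable at this depth. The Syt2 share of the pair was 7.67% before puberty and 10.1% at puberty.

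The complexins stayed close to each other in both libraries. Cplx1 (complexin 1, ENSRNOG00000000060) had 148 and 140 FPKM. Its log2 ratio was -0.07, with a counting interval of -0.13 to -0.01. Cplx2 (complexin 2, ENSRNOG00000000105) had 104 and 96.3 FPKM, a log2 ratio of -0.11 with a counting interval of -0.23 to 0.01. The Cplx1 share of the pair was 58.6% and 59.3%, so the complexin pair kept its composition within 0.656 percentage points.

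**Figure D3:**
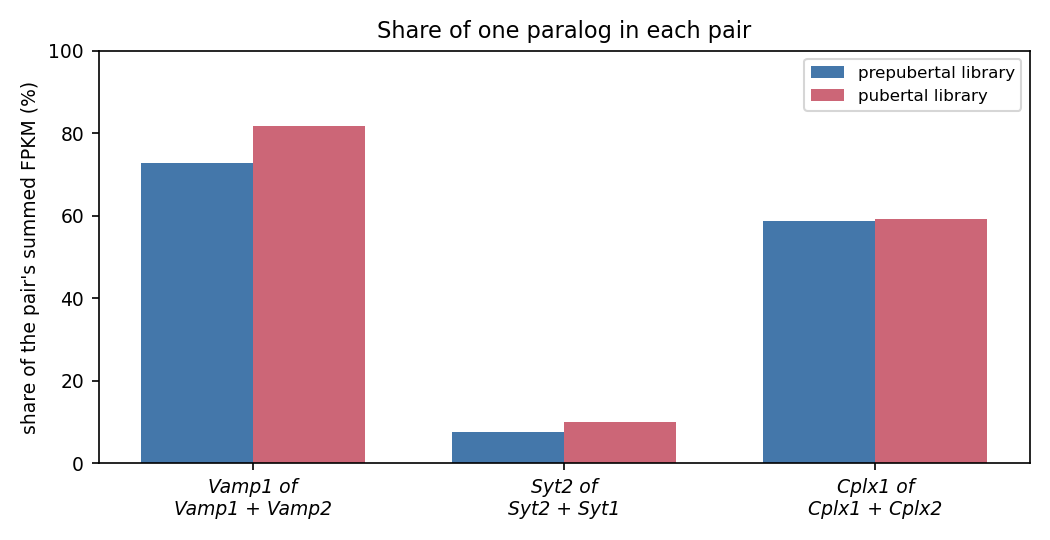
Share of the first-named gene in the summed FPKM of each pair of paralogs, in percent, in the prepubertal (blue) and the pubertal (red) library, with 1 library per bar. The Vamp1 share differs by 9.09 points and the Syt2 share by 2.39 points, while the Cplx1 share differs by 0.656 points.

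The 8 genes were set beside 148 further genes of the release machinery, grouped by role. In these lists 62 genes were higher and 86 lower at puberty, with a median log2 ratio of -0.06. The share that was lower was 58.1%, against 40.4% of all genes, 51.1% of the genes with FPKM of at least 1 and 37.7% of those with at least 50. A difference of 1.5-fold was reached by 1 gene upwards and 5 downwards, against 1.43% and 1.86% of all genes. The medians of the lists ran from -0.13 for docking and for synaptic vesicle proteins to 0.16 for the other vesicle SNAREs. Scaling to equal Actb brought all of these medians above 0, together with that of all genes (0.19). It moved the lists little against each other, but their medians then all lay above that of all genes.

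Among the other vesicle SNAREs, which serve general membrane traffic, 5 of 7 were higher and the median log2 ratio was 0.16. Most of these genes reached 50 FPKM, where 62.3% of genes were higher (48.9% of those with FPKM of at least 1), so the count is near the background. Vamp8, a SNARE of endosomes and of secretion outside the brain, had 46.6 and 89.2 FPKM (0.92), but its single transcript is only 301 nt long, where FPKM is sensitive to the assumed fragment size. Vamp5 followed at 6.91 and 8.73 FPKM (0.30), and the lowest ratios were those of Vamp3 (-0.09) and Vamp4 (-0.02). Among the other target SNAREs 15 of 22 were higher, against the same 48.9%, with a median of 0.08. Stx8, an endosomal syntaxin, had 52.2 and 65.8 FPKM (0.33), and Stx3 had 5.70 and 7.10 FPKM (0.27). At the other end were Snap23, the Snap25 relative of non-neuronal cells, with 8.19 and 5.65 FPKM (-0.47), and Stx18 with 16.0 and 12.3 FPKM (-0.35).

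Of the other calcium sensors and complexins, 9 of 21 were higher, near the 38.9% of all genes and the 48.9% of those with FPKM of at least 1, and the median was -0.05. Syt9, a fast sensor related to Syt1, had 11.5 and 6.49 FPKM (-0.74), and Syt7, a slow sensor, had 41.7 and 29.5 FPKM (-0.48). Syt10 stood at 5.55 and 7.43 FPKM (0.36) and Doc2a at 11.2 and 14.7 FPKM (0.36). The synaptotagmins of this list thus went both ways.

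Among docking, priming and active zone genes, 23 of 37 were lower, against 51.1% of the genes with FPKM of at least 1, with a median of -0.13. Unc13a (Munc13-1), which primes vesicles, had 16.4 and 12.1 FPKM (-0.41). The lowest ratios among genes of at least 5 FPKM were those of the scaffolds Rimbp2 (6.42 and 4.27 FPKM, -0.49) and Bsn (9.82 and 7.08 FPKM, -0.42), and the highest those of Rims4 (0.15) and Rims2 (0.14). A separate identifier named Rims2 had 2.74 and 1.30 FPKM.

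In the list of SNARE disassembly and chaperones, 4 of 7 genes were higher and the median was 0.14. All 7 had FPKM of at least 50, where 62.3% of genes were higher, so the count is near the background. Nsf, the ATPase that takes spent SNARE bundles apart, had 136 and 118 FPKM (-0.20) and its adaptor Napa had 98.5 and 95.1 FPKM (-0.05). Hspa8 had 339 and 406 FPKM (0.26) and the adaptor Napg 76.6 and 87.7 FPKM (0.19).

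Of the synaptic vesicle proteins, 21 of 29 were lower, against 51.1% of the genes with FPKM of at least 1, with a median of -0.13. A difference of at least 1.5-fold downwards was seen in 3 of the 29, against 1.86% of all genes. These were Slc17a7, Syp and Atp6v0c, the last of which was named after its value was seen. Slc17a7 (the vesicular glutamate transporter of cortical neurons) had 26.2 and 12.8 FPKM (-0.98). Syp (synaptophysin), which binds Vamp2 on the vesicle, had 392 and 250.4 FPKM (-0.64), and Atp6v0c, a proton pump subunit, had 266 and 171 FPKM (-0.63). Syn1 (synapsin 1) had 31.7 and 24.8 FPKM (-0.34). The highest ratios were those of Slc18a2, the vesicular monoamine transporter (0.23), and Sypl1 (0.22). For vesicle endocytosis 18 of 25 genes were lower, against the same 51.1%, with a median of -0.11, from Sh3gl2 (endophilin A1, 73.3 and 52.1 FPKM, -0.49) and Ap2a1 (-0.36) to Necap1 (0.11) and the clathrin light chain Clta (0.24). Among the further listed genes with FPKM of at least 50, those nearest in log2 ratio to the median of the 8 genes were Atp6v1b2 (-0.09), Sv2a (-0.11) and Cltb (-0.08), a likeness over 2 libraries only.

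**Figure D4:**
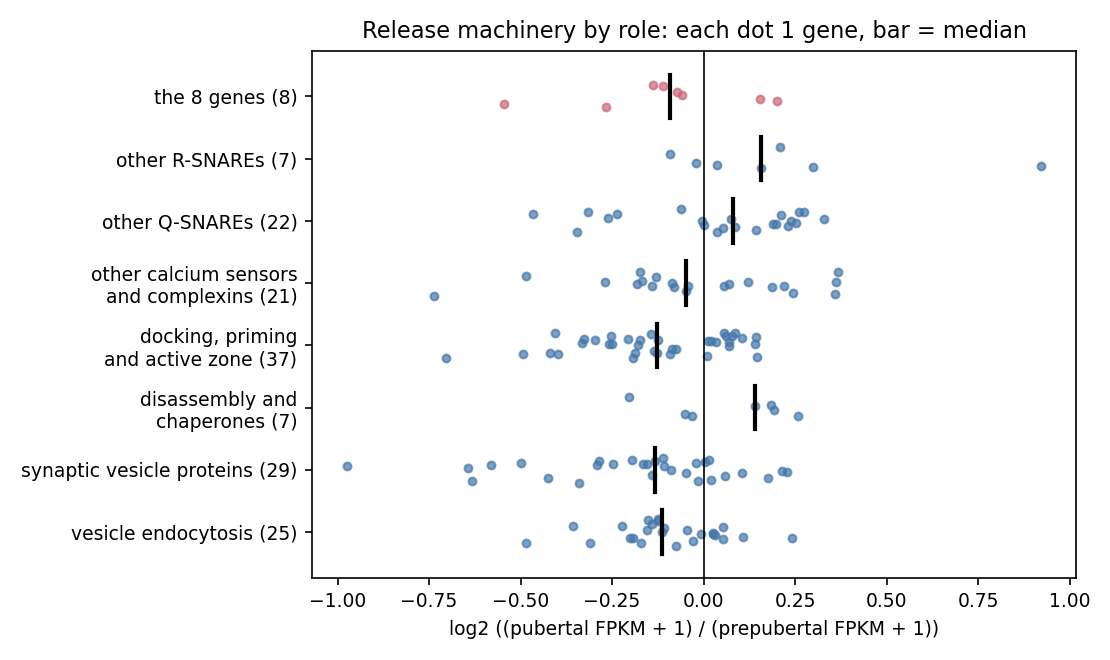
Log2 ratio of every gene found in the tables, by role, with the number of genes in brackets and a black bar at the median. The medians of the 8 genes (-0.09), of docking and priming (-0.13), of synaptic vesicle proteins (-0.13) and of endocytosis (-0.11) lie below 0, and those of the other R-SNAREs (0.16), the other Q-SNAREs (0.08) and of disassembly (0.14) above 0 as deposited.

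Cell type markers were read beside these values, because in a bulk sample fewer cells of a type and less RNA per cell cannot be told apart. All 12 hypothalamic markers were above 0 in both libraries, and 9 were higher at puberty, with a median log2 ratio of 0.24, against 48.9% of the genes with FPKM of at least 1. Their summed FPKM was 2773 and 4187, and most of that difference lay in Pmch (1675 and 2723 FPKM) and Oxt (411 and 686 FPKM). The 11 pan-neuronal markers had a median log2 ratio of -0.00 and went both ways, 5 higher and 6 lower, from -0.48 to 0.30. Of these Rbfox3 (-0.48), Stmn2 (-0.46) and Nefm (-0.46) were lower by nearly as much as Vamp2. Gap43 (0.30), Elavl3 (0.27) and Map2 (0.13) were among the 5 that were higher. The part of neuron number in the difference of Vamp2 was not tested. Markers of thalamus were lower in 6 of 6 genes (summed FPKM 276 and 222), and 5 cortical and hippocampal markers summed to 34.2 and 17.4 FPKM. In the latter list 3 genes were lower, Slc17a7, Neurod6 and Bcl11b, and Tbr1 stayed below 1 FPKM in both libraries. Slc17a7 stands in this list and in that of the synaptic vesicle proteins. The part of such tissue in the differences of Vamp2, Syt1 and Syp was not tested. Of the pituitary markers Prl was listed at 0 and 3.40 FPKM, and the 6 together summed to 31.6 and 44.4 FPKM. Medians of the astrocyte and endothelium lists were 0.00 and 0.01, that of the oligodendrocyte list was -0.15, that of the microglia list was 0.18 and that of the choroid plexus list was 0.15.

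The log2 ratios of the 8 genes were recomputed under 7 other ways of processing that can move at least some of them. Vamp1 ranged from 0.13 to 0.61, Syt2 from 0.13 to 0.54 and Vamp2 from -0.62 to -0.15. Stx1a, Syt1, Cplx1 and Cplx2 changed sign under the scaling to equal Actb. Snap25 changed sign under that scaling and when its more abundant transcript was taken alone. Setting the pan-neuronal markers or the medians of all genes equal shifted the pubertal library by 0.00 and 0.01 on the log2 scale and turned no sign among the 8 genes.

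**Figure D5:**
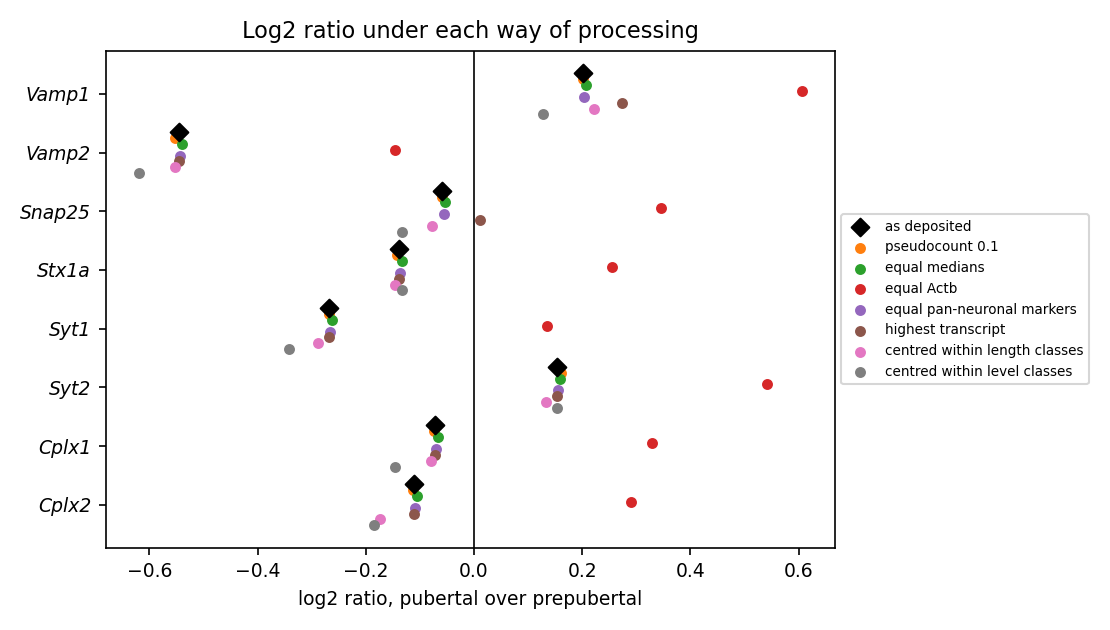
Log2 ratio of each of the 8 genes as deposited (black diamonds) and under 7 other ways of processing (coloured dots). Scaling to equal Actb shifts all genes to the right, to between -0.15 (Vamp2) and 0.61 (Vamp1), since it multiplies every pubertal value by the same factor.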

How the data were processed

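Per the labels and the methods, hypothalamic RNA of Sprague Dawley rats was depleted of ribosomal RNA, made into strand-specific libraries and sequenced with paired ends. After alignment with TopHat and assembly by Scripture and Cufflinks, the authors deposited FPKM values from Cuffdiff (2.1.1 in the submitters' processing notes, which name Rnor 5.0, while the methods name a later annotation). The deposited comparison table also holds other columns, including transcript length, and its fold changes (log2), p-values and q-values were not used. FPKM came from the mRNA table, was summed per gene and compared as log2 with a pseudocount of 1. Gene names came from the comparison table.

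The number of fragments was derived from 9924 genes with a single transcript of 1500 to 6000 nt: values of up to 10 fragments were whole, within 0.05 of a fragment, for 95.3% of 834 prepubertal and 94.5% of 960 pubertal values, with 255 and 250 nt taken off the length. The scripts were tested on simulated data. The total of sequenced reads was not derived.

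The members and lists were chosen with earlier results of these data known. Of 152 further listed gene names 5 were not found, and Rims2 has 2 identifiers, which leaves 148 genes. Named genes were the members, a few partners (some are not reported here), the 2 highest and 2 lowest ratios per list at FPKM of at least 5, and the 3 listed genes nearest to the members' median. Atp6v0c, the second identifier of Rims2 and some markers were named in addition, after their values were seen. Alternatives are given in the closing section. The software was Python 3.11.15 with scipy 1.17.1, numpy 2.4.6, pandas 2.3.3 and, for plots, matplotlib 3.10.9.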

Additional observations from a re-analysis of the deposited data

How the results depend on the processing

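Scaling to equal Actb, which multiplied pubertal FPKM by 1.32, moved most values, and the median of genes with FPKM of at least 50 went from 0.06 to 0.46. That of all genes went from 0.00 to 0.19. For the 8 genes the median became 0.31, 1 of 8 was lower and 1 passed 1.5-fold (Vamp1). The list medians became 0.56 (other vesicle SNAREs), 0.47 (other target SNAREs), 0.32 (calcium sensors and complexins), 0.24 (docking and priming), 0.54 (disassembly), 0.27 (vesicle proteins) and 0.28 (endocytosis). After centring within classes of level, 1 of the 8 genes passed 1.5-fold (Vamp2, -0.62). As deposited, 0 passed 1.5-fold or 2-fold, and 1 passed the lower threshold of 0.32 on the log2 scale. With the highest transcript alone the Vamp1 share gained 12 points instead of 9.09. Snap25 alone changed sign among the 8 genes under that setting, with 0.01. The tested settings also included a pseudocount of 0.1, equal medians, equal pan-neuronal markers, classes of transcript length, genes with FPKM of at least 1, and the comparison table's FPKM. The last 2 could not move the 8 genes, which all pass that filter and have the same FPKM in both tables. With 1 library per stage no library could be left out. No paired analysis was possible because each stage has 1 library.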
